A study of Homo sapiens with 9 samples.

Results

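Messenger RNA of the protein kinase C genes was followed in MDA-MB-231, an established line of human breast cancer cells, under a change of medium viscosity and a knockdown of the ion channel TRPV4. The 8 isoforms PRKCA, PRKCB, PRKCD, PRKCE, PRKCH, PRKCI, PRKCQ and PRKCZ were chosen by gene name, with results of the same counts already known, out of 60664 genes listed. A count was seen for 7 of the 8, and 6 passed the filter on low counts and were tested among 18264 genes. Because the isoforms were selected with these values in view, their levels and differences are given as a description, with standard errors and without p-values.

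The study cultured cells in medium of 0.77 cP, close to water, or of 8 cP until day 6 and asked whether cells keep a record of the viscosity they had been in. Scramble control cells (SC) carried a non-targeting hairpin and were grown at 0.77 cP or at 8 cP. shTRPV4 cells carried a hairpin against TRPV4 and were grown at 8 cP, and the series has no samples of shTRPV4 cells at 0.77 cP. Each group had 3 samples. Both hairpins were delivered in a puromycin-selected lentiviral vector, so all 9 samples came from stably transduced cells, and the SC and shTRPV4 cells are separate transductions made with 1 hairpin each as far as the methods state. The labels do not say whether samples of a group came from separate cultures, so errors and p-values measure only the spread between these samples.

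Total counts per sample lay between 64571681 and 103518036 and were lowest in SC 0.77 cP replicate 2. Reads on TRPV4 were few, at 0.46 CPM (counts per 1e6 of the scaled library) in both SC groups and 0.08 CPM in shTRPV4 cells (log2 fold change -2.51 between the groups at 8 cP, adjusted p = 0.00219, edgeR quasi-likelihood test). Vimentin (VIM), CD44 and keratin 8 (KRT8), all abundant in this line, were at 754 CPM or more in every sample, ESR1 and PGR did not exceed 4 counts. Of the same list of luminal genes, ERBB2 was at 89.6 to 96.8 CPM and GATA3 at 11.9 to 16.4 CPM. The leukocyte genes CD4 and MS4A1 had 0 counts, while CD14 reached 558 counts and CD8A 221 counts in a sample. Of 6 genes listed as marks of the line, SPARC was low, at 0.6 to 1.63 CPM. The summed level of 11 leukocyte genes was 5.62 to 8.12 CPM, and that of 7 fibroblast genes, mostly COL1A2, was 43.1, 27.6 and 26.2 CPM in the order SC 0.77 cP, SC 8 cP, shTRPV4. The part of these genes in the results below was not tested. In bulk RNA, fewer cells of a kind and less RNA per cell cannot be told apart.

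Protein kinase C is a family of serine and threonine kinases that read lipid signals at membranes. Conventional isoforms (here PRKCA and PRKCB) need calcium and diacylglycerol, calcium-independent isoforms (PRKCD, PRKCE, PRKCH, PRKCQ) need diacylglycerol alone, and atypical isoforms (PRKCI, PRKCZ) need neither and work in cell polarity complexes with PAR6 proteins. Calcium entry through channels such as TRPV4 is an input to the conventional class, and protein kinase C in turn phosphorylates TRPV4 and makes it open more readily. In breast cancer cells PRKCA and PRKCE are best known for motility and invasion, PRKCD for apoptosis and proliferation, and PRKCI for polarity.

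Whether an isoform is atypical can be read in its coding sequence near the C-terminal end. The stretches below were cut from the reference transcripts (GENCODE release 44) around the hydrophobic motif, which is phosphorylated when conventional and calcium-independent isoforms mature. Capitals mark the codon at the phosphorylation site, a serine codon in the conventional and calcium-independent isoforms and a glutamate codon, whose product carries the negative charge without phosphate, in both atypical isoforms.
PRKCA: tctgattttgaagggttcTCGtatgtcaac
PRKCB: tcagaattcgaaggatttTCCtttgttaac
PRKCD: tctgcattcgctggcttcTCCtttgtgaac
PRKCE: gaggaattcaaaggtttcTCCtactttggt
PRKCH: gatgagtttagaaactttTCCtatgtgtct
PRKCQ: aatatgttcaggaactttTCCttcatgaac
PRKCI: tctgaatttgaaggttttGAGtatatcaat
PRKCZ: tcagagttcgaaggctttGAGtatatcaac
The site is codon 657 of 672 in PRKCA and codon 579 of 592 in PRKCZ. The conventional and calcium-independent reading frames each held 2 matches to the zinc-binding C1 pattern, the diacylglycerol-binding domain, and the atypical frames held 1. Coding sequences of PRKCI and PRKCZ were 68.3% identical over aligned bases, and those of PRKCA and PRKCB 76.1%. Between transcripts of the 8 isoforms the longest identical run was 53 bases, shared by PRKCA and PRKCB, which is shorter than the 100-base reads. The pseudogene PRKCIP1 shared a run of 140 bases with PRKCI, long enough for a read to match both, and had at most 4 counts in a sample.

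Per kilobase of merged exons, the scale on which genes were compared, the order of the isoforms was the same in all 3 groups. It ran from PRKCA through PRKCI, PRKCD, PRKCE, PRKCZ, PRKCH and PRKCQ to PRKCB. Neighbours in this order did not overlap within any group. The closest pair was PRKCA and PRKCI, whose group means differed 1.12-fold, 1.17-fold and 1.09-fold in the order SC 0.77 cP, SC 8 cP, shTRPV4. A gap of 5.63-fold to 6.54-fold separated PRKCD from PRKCE, so that PRKCA, PRKCI and PRKCD, 1 isoform of each class, made up most of the RNA of the 8 isoforms. The share of PRKCA in the summed level per kilobase was 36.3% ± 1.05, 38.2% ± 1.03 and 37.1% ± 0.749 in that order (SD, n = 3 each). PRKCI followed at 32.3%, 32.6% and 34.1%, and PRKCD at 24.6%, 22.9% and 22.5%. Calcium-independent isoforms together took 29.4% ± 0.717, 27.7% ± 0.494 and 26.8% ± 0.847, each SD from 3 samples, while atypical isoforms took 34.3%, 34.1% and 36.1%. Per kilobase of coding sequence the order was unchanged but the share of PRKCA was larger, at 50.9%, 52.9% and 51.7%. PRKCA has 11175 bases of merged exons and 2016 of coding sequence, against 5778 and 1788 in PRKCI.

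**Figure D1:**
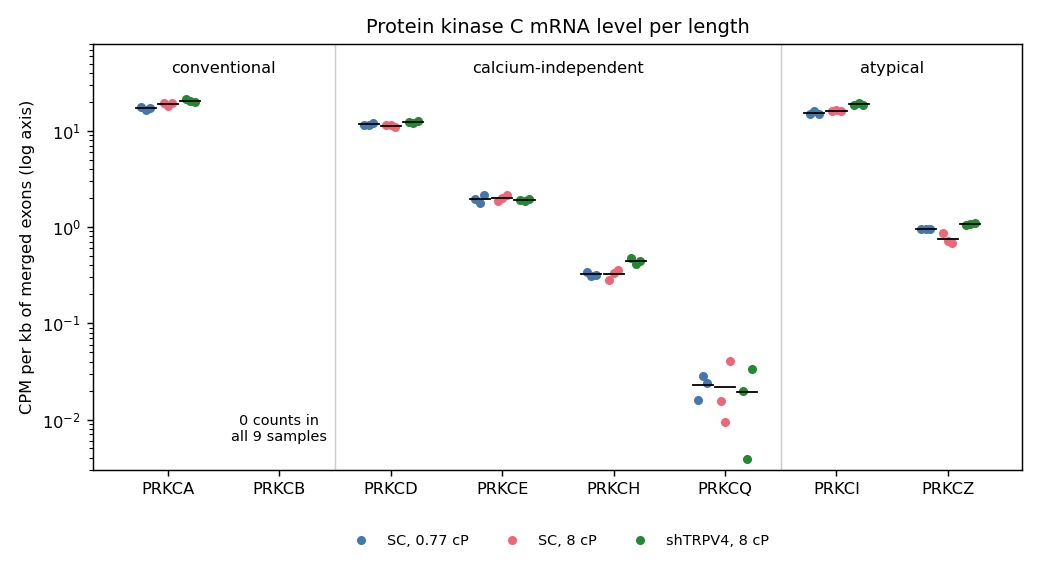
Level of the 8 protein kinase C genes in CPM per kilobase of merged exons on a log axis, with 1 point per sample, a line at the group mean of 3 samples and the 3 classes set apart. PRKCA, PRKCI and PRKCD lie above 11 in every sample, PRKCQ lies below 0.05, and PRKCB had 0 counts and is not drawn.

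Counted at an adjusted p under 0.05, 1 of the 6 tested isoforms was higher in SC cells at 8 cP than at 0.77 cP (PRKCA) and 1 was lower (PRKCZ), where 9.57% of all genes tested were called higher and 9.69% lower. In shTRPV4 cells against SC cells at 8 cP, 3 of the 6 were higher (PRKCH, PRKCI and PRKCZ) and 0 were lower, beside 9.02% and 11.0% of all genes. Between the end points, shTRPV4 at 8 cP against SC at 0.77 cP, where viscosity and knockdown cannot be told apart, 3 were higher (PRKCA, PRKCH and PRKCI) and 0 lower, beside 20.4% and 22.0%. Nothing is read from these counts, because the isoforms were chosen with the comparisons known. Calls in the refits below reuse the same samples, so they show only how far a call hangs on 1 sample or setting. The median size of the log2 difference over the 6 isoforms was 0.06 for viscosity, 0.17 for the knockdown and 0.21 for the last comparison, against 0.15, 0.15 and 0.23 over all genes. The viscosity and knockdown comparisons share the SC samples at 8 cP, so a low or high value there enters both with opposite sign. With 1 hairpin and 1 shTRPV4 line, an effect of the knockdown and of the transduced line cannot be told apart.

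**Figure D2:**
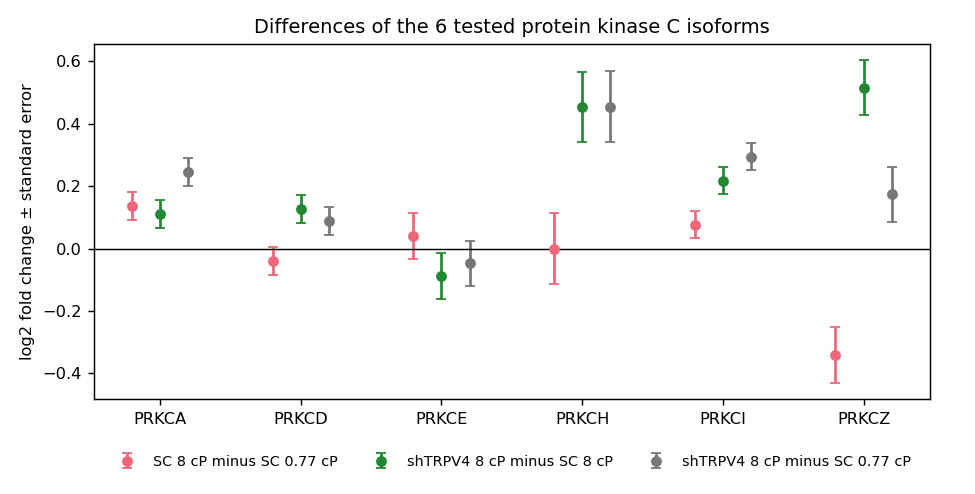
Difference of the 6 tested isoforms on the log2 scale, with the standard error of the edgeR fit as bars, for the 3 comparisons named in the legend. PRKCZ is at -0.34 for viscosity and 0.52 for the knockdown, PRKCH is near 0 and at 0.45, and PRKCD and PRKCE stay within 0.13 of 0.

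PRKCA (ENSG00000154229, chr17:66302613-66810743 on GRCh38, plus strand) is the conventional isoform of this line and was the most abundant member. Its level in the 3 samples of SC cells was 198, 186 and 195 CPM at 0.77 cP and 216, 204 and 217 CPM at 8 cP, and in shTRPV4 cells it was 237, 227 and 223 CPM. No pair of groups overlapped, and shTRPV4 cells were the highest. The difference was 0.14 ± 0.04 (log2, SE) for viscosity, or 9.93%, and 0.11 ± 0.04 for the knockdown, and from end to end it came to 0.25 ± 0.04, or 18.7%. The viscosity difference was the least secure of the called isoform differences: over 9 fits that each left out 1 sample it ranged from 0.12 to 0.18, and 4 of these fits called it. The call was lost without SC 0.77 cP replicate 1 or 2, SC 8 cP replicate 1 or 3, or shTRPV4 replicate 2, and also with upper quartile scaling or no filter on low counts.

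PRKCB (ENSG00000166501, chr16:23835983-24220611), a conventional isoform known from B lymphocytes, had 0 counts in all 9 samples. A limit of 3 counts, for counting error only, stands at 0.029 to 0.0465 CPM depending on the library. PRKCQ (ENSG00000065675, chr10:6427143-6580301, minus strand), the calcium-independent isoform of T lymphocyte signalling, was low and in most samples above that limit. It had 5, 6 and 8 counts in SC cells at 0.77 cP, 5, 3 and 12 at 8 cP, and 6, 1 and 10 in shTRPV4 cells. The groups overlapped fully, and at this depth a difference was not detectable.

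PRKCD (ENSG00000163932, chr3:53156009-53192717) was the leading calcium-independent isoform. It stood at 56.2, 57.0 and 59.1 CPM in SC cells at 0.77 cP, 56.9, 56.4 and 54.1 CPM at 8 cP, and 61.2, 59.4 and 62.4 CPM in shTRPV4 cells. The SC groups overlapped, with a difference of -0.04 ± 0.04 (log2, SE), and shTRPV4 cells lay above both, by 0.13 ± 0.04 over SC cells at 8 cP. That difference was not called by edgeR but was called by DESeq2 and when only genes with at least 10 counts in every sample were kept.

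PRKCE (ENSG00000171132, chr2:45651345-46187990), a calcium-independent isoform with oncogenic activity in cell culture, did not separate the groups. Its level was 19.6, 17.7 and 21.5 CPM in SC cells at 0.77 cP, 18.8, 20.2 and 21.5 CPM at 8 cP, and 19.0, 18.6 and 19.3 CPM in shTRPV4 cells. All pairs of groups overlapped, and the differences were 0.04 ± 0.07 for viscosity and -0.09 ± 0.07 for the knockdown (log2, SE).

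PRKCH (ENSG00000027075, chr14:61187559-61550976), a calcium-independent isoform best known from epithelium, was low. It had 3.04, 2.81 and 2.86 CPM in SC cells at 0.77 cP, 2.52, 3.01 and 3.19 CPM at 8 cP, and 4.31, 3.67 and 3.96 CPM in shTRPV4 cells. The SC groups had the same mean, 2.90 and 2.91 CPM, and every shTRPV4 sample was above every SC sample. The knockdown difference was 0.45 ± 0.11 (log2, SE), or 37.1%, on 180 to 395 counts per sample over the 9 samples. Over the 9 fits that left out 1 sample it ranged from 0.36 to 0.53. The call was lost in the fit without SC 8 cP replicate 1, the lowest sample, which gave 0.36. PRKCH shares 419 exon bases with a gene on its own strand that had 0 counts, and 627 with genes on the opposite strand, of which TMEM30B at 0.177 to 0.306 CPM in the group means was the most abundant.

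**Figure D3:**
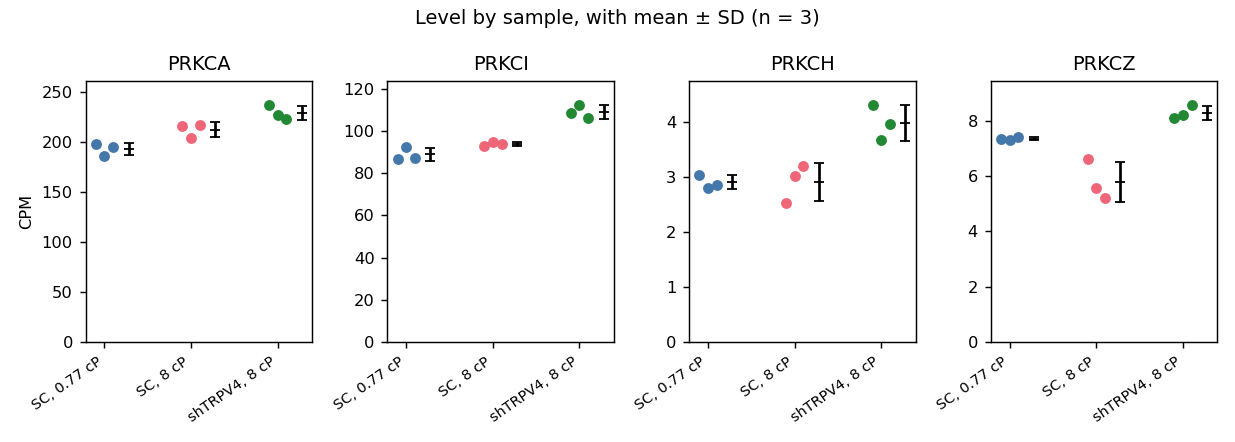
Level in CPM of the 4 isoforms called in any comparison, with 1 point per sample and, to the right of each group, the mean and SD of its 3 samples; axes start at 0 and differ between panels. For PRKCZ the SC samples at 8 cP, between 5.21 and 6.61 CPM, lie below all samples of the other groups, and for PRKCI and PRKCH the shTRPV4 samples lie above all SC samples.

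PRKCI (ENSG00000163558, chr3:170222424-170305977) is the atypical isoform that binds PAR6 and PAR3 at cell junctions and the leading edge. It stood at 86.7, 92.5 and 87.3 CPM in SC cells at 0.77 cP, 92.8, 94.6 and 93.6 CPM at 8 cP, and 108, 112 and 106 CPM in shTRPV4 cells. The SC groups lay next to each other without overlap, 0.08 ± 0.04 (log2, SE) apart, and the shTRPV4 samples were separated from both. The knockdown difference was 0.22 ± 0.04, or 16.3%. It ranged from 0.19 to 0.24 over the 9 fits that left out 1 sample, and from 0.21 to 0.22 over 6 other settings.

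PRKCZ (ENSG00000067606, chr1:2050411-2185395), the other atypical isoform, was the only tested member whose called differences had opposite signs. It was at 7.35, 7.30 and 7.40 CPM in SC cells at 0.77 cP, at 6.61, 5.57 and 5.21 CPM at 8 cP, and at 8.10, 8.20 and 8.58 CPM in shTRPV4 cells. The SC samples at 8 cP were the lowest and spread most, with an SD of 0.728 CPM against 0.0516 at 0.77 cP. The difference was -0.34 ± 0.09 for viscosity, a decrease of 21.1%, and 0.52 ± 0.09 for the knockdown (log2, SE), while the end points were 0.17 ± 0.09 apart, which was not called. The knockdown difference ranged from 0.45 to 0.62 over the 9 fits that left out 1 sample. The viscosity difference was called in 6 of them, with values from -0.44 to -0.26, and the call was lost without SC 0.77 cP replicate 1 or SC 8 cP replicate 2 or 3. PRKCZ shares 939 exon bases with genes on the opposite strand, 590 of them with FAAP20, a DNA repair gene at 38.3, 34.0 and 29.8 CPM in the 3 groups. FAAP20 was lower in shTRPV4 cells than in SC cells at 8 cP (log2 fold change -0.19, adjusted p = 0.0362), where PRKCZ was higher. For viscosity FAAP20 was at -0.17 (adjusted p = 0.0584, not called), the same sign as PRKCZ. PRKCZ-AS1, with 83 of the shared bases, was higher in shTRPV4 cells (0.64), as was PRKCZ. The library kit marks strand, but the strand setting of the counting is not given in the sources used here. The part of FAAP20 and PRKCZ-AS1 in the PRKCZ counts was therefore not tested.

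The genes whose profiles over the 9 samples were most like those of the 3 most variable isoforms were found by the root mean square difference of centred log2 CPM among 10698 genes with at least 5 CPM. For PRKCZ they were CHN1 (0.0758), which encodes a Rac-inactivating protein that also binds diacylglycerol, USP43 (0.0769) and TMEM41B (0.0773). CHN1 stood at 21.0, 17.4 and 23.0 CPM in the order SC 0.77 cP, SC 8 cP, shTRPV4. PRKCH was closest to DTD2 (0.0581), MAPK8IP1 (0.0752) and CRACR2A (0.0786), and PRKCI to MAGEF1 (0.0282), TMEM167A (0.0321) and COX10-DT (0.0325). The samples share libraries and scaling, and the ranking is a description.

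The wider pathway was covered by 8 lists of 87 genes, of which 77 were tested. For viscosity 10 rose and 16 fell, for the knockdown 11 rose and 11 fell, and between the end points 18 rose and 23 fell. Over all genes tested, 9.57% rose and 9.69% fell for viscosity, 9.02% and 11.0% for the knockdown, and 20.4% and 22.0% between the end points. With so few genes to a list, the counts per list below are a description and are to be read beside these shares. The median log2 difference over the 77 genes was -0.02 for viscosity and -0.02 for the knockdown, against -0.01 and 0.00 over all genes. Of the phospholipase C genes, whose products make diacylglycerol, 0 of 11 tested rose and 3 fell for viscosity, where 9.57% and 9.69% of all genes did. PLCD1 fell from 21.1 to 16.2 CPM (log2 fold change -0.38, adjusted p = 0.00127), and PLCH2 and PLCD4, both at no more than 1.12 CPM in any sample, fell more (-1.08 and -1.12, adjusted p = 0.0319 and 0.0397). In shTRPV4 cells 2 rose, PLCG1 by 0.24, from 120 to 141 CPM (adjusted p = 0.00259), and PLCG2 by 0.24 (adjusted p = 0.0491). Of 7 tested diacylglycerol kinase genes, which remove the lipid, DGKA and DGKD fell for viscosity (-0.27 and -0.18, adjusted p = 0.0259 and 0.0289), and DGKD rose by 0.23 in shTRPV4 cells (adjusted p = 0.00649). The viscosity calls of PLCH2, PLCD4, DGKA and DGKD were lost when SC 0.77 cP replicate 1 or SC 8 cP replicate 3 was left out, among other samples. They held in 5, 5, 4 and 5 of the 9 fits that left out 1 sample. The knockdown call of PLCG2 was lost in 6 of these 9 fits. The replicate block also ended the calls of PLCD4 for viscosity and PLCG2 for the knockdown, and upper quartile scaling and no filter on low counts ended that of PLCG2.

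Among 8 tested genes of families that include other diacylglycerol-binding proteins, though not every member binds the lipid, CHN1 fell for viscosity and rose with the knockdown (-0.27 and 0.40, adjusted p = 0.00886 and 0.000361). UNC13B, of the vesicle priming family, rose by 0.32 for viscosity (adjusted p = 0.0107). In shTRPV4 cells UNC13D fell (-0.21, adjusted p = 0.00375), and UNC13A, with 20 to 59 counts in the 6 samples at 8 cP, rose by 1.26 (adjusted p = 0.0255). Of 11 genes of maturation and turnover, MAPKAP1 and MTOR, subunits of the kinase complex that acts on newly made protein kinase C, rose for viscosity by 0.23 and 0.31 (adjusted p = 0.0113 and 0.0268). RICTOR and MLST8, subunits of the same complex, were at -0.01 and 0.04 and were not called (adjusted p = 0.959 and 0.572). PHLPP1, a phosphatase of the hydrophobic motif shown above, rose with the knockdown by 0.23 (adjusted p = 0.0285), and the chaperone gene HSP90AA1 fell (-0.17, adjusted p = 0.0314). Without SC 0.77 cP replicate 1 or SC 8 cP replicate 3 the viscosity calls of CHN1, UNC13B, MAPKAP1 and MTOR were lost. They held in 7, 6, 7 and 6 of the 9 fits that left out 1 sample. Leaving out single samples at 8 cP ended the knockdown calls of UNC13A, PHLPP1 and HSP90AA1 in 4 of the 9 fits each.

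Anchoring proteins gave 2 genes higher and 2 lower of 7 for viscosity, beside 9.57% and 9.69% of all genes. The caveola protein CAVIN3, a binding partner of PRKCD, went from 130 to 107 CPM for viscosity and to 79.4 CPM in shTRPV4 cells (log2 fold changes -0.28 and -0.43, adjusted p = 0.00375 and 7.15e-05). CAVIN2, a binder of PRKCA, was at 94.0, 94.7 and 94.0 CPM in SC cells at 8 cP and at 60.7, 66.3 and 70.6 CPM in shTRPV4 cells, without overlap (-0.52, adjusted p = 1.16e-05), after a small rise for viscosity (0.17, adjusted p = 0.0449). AKAP13 fell for viscosity (-0.23, adjusted p = 0.0212), and AKAP12, an anchor at the membrane, rose in shTRPV4 cells (0.44, adjusted p = 0.00176). Of 12 partners of atypical isoforms, the polarity gene LLGL2 fell for viscosity from 13.7 to 9.68 CPM (-0.51, adjusted p = 0.00279). WWC1, a Hippo pathway scaffold that binds PRKCZ, rose in both comparisons (0.19 and 0.27, adjusted p = 0.0248 and 0.00258). In shTRPV4 cells PARD6B rose (0.29, adjusted p = 0.0128) and CDC42, the small GTPase that loads PAR6, fell from 447 to 382 CPM (-0.23, adjusted p = 0.00464). The viscosity calls of CAVIN2, AKAP13 and WWC1 were lost without SC 0.77 cP replicate 1 or SC 8 cP replicate 3, among other samples. They held in 3, 6 and 5 of the 9 fits that left out 1 sample. That of CAVIN2 was also lost with upper quartile scaling, and the call of PARD6B in 3 of the 9 fits.

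Of 8 tested substrates 0 rose and 2 fell for viscosity, and at 9.57% of all genes called higher a count of 0 among 8 is near the background. The actin bundler FSCN1 (-0.33, adjusted p = 0.000991) and MARCKSL1, a membrane and actin protein (-0.36, adjusted p = 0.00488), fell. MARCKSL1 fell further in shTRPV4 cells, to 53.1, 54.2 and 59.2 CPM from 83.1, 75.6 and 64.7 CPM in SC cells at 8 cP (-0.42, adjusted p = 0.00116). Genes that phorbol ester, a mimic of diacylglycerol, raises in many cells went both ways, with 4 higher and 5 lower of 13 for viscosity, beside 9.57% and 9.69% of all genes, and 2 higher and 4 lower for the knockdown, beside 9.02% and 11.0%. EGR1, FOS and CXCL8 fell for viscosity (log2 fold changes -2.51, -2.09 and -2.30, adjusted p = 1.45e-08, 7.07e-08 and 1.7e-06). FOSL1, a subunit of the transcription factor AP-1, rose in shTRPV4 cells from 338 to 493 CPM (0.54, adjusted p = 1.16e-05), while JUN fell (-0.46, adjusted p = 0.00111). MMP9, among the 2 higher genes, had 5, 3 and 3 counts in SC cells at 8 cP and 26, 23 and 20 in shTRPV4 cells. MMP9 passed the filter on low counts only through the shTRPV4 samples. Its log2 fold change of 2.75 is therefore a description, given without a p-value. These lists were written with earlier results of the same data known, so their counts describe the genes and do not test the pathway.

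**Figure D4:**
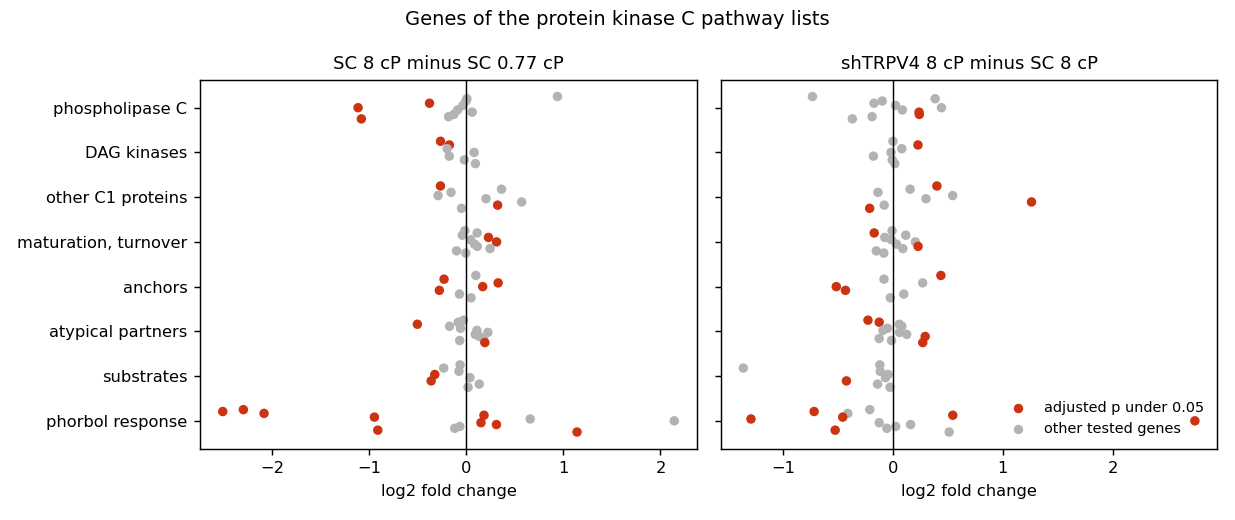
Log2 fold change of each tested gene of the 8 pathway lists, 1 point per gene and 1 row per list, for viscosity in SC cells on the left and for the knockdown at 8 cP on the right; red marks an adjusted p under 0.05 in edgeR. Points lie on both sides of 0 in most rows, and the widest values are the phorbol response genes, from EGR1 at -2.51 for viscosity to MMP9 at 2.75 for the knockdown. MMP9 passed the filter on low counts only through the shTRPV4 samples, so its color is not read as a result.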

How the data were processed

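Per the labels and methods, stranded poly(A) libraries were read as pairs of 100 bases. The authors aligned reads to GRCh38.p13 with HISAT2 2.2.1 and deposited raw counts on exons per Ensembl gene from HTSeq 0.13.5, without normalization; strand option and multiple-match setting are not given in the sources used here. Of 60664 genes, 60463 were matched to a symbol in GENCODE release 44, which also gave positions and lengths; the protein table was not used here, so coding length is the longest coding sequence of that annotation. In R 4.3.3, edgeR 4.0.16 (TMM, filterByExpr, 1 coefficient per group, quasi-likelihood test, all 9 samples) tested 18264 genes, with Benjamini-Hochberg adjustment over them; the common biological coefficient of variation was 0.0633. CPM used TMM. The fit was tested on simulated counts. No libraries held the same values within sampling noise. Groups came from sample titles. Members and lists were chosen with earlier results of these data known. Named genes were members, TRPV4, protein kinase D genes, RNA genes named after a member and genes most like the 3 most variable members. Of each list, the 3 genes with the smallest adjusted p for viscosity and for the knockdown were also named. Listed genes that missed the threshold were not printed, except RICTOR and MLST8, and genes sharing exons were added after values were seen. Some items that the rule names are not reported here. Alternatives were DESeq2 1.42.0, upper quartile scaling, other filters, only the samples compared, a replicate block and leaving out each sample. The libraries hold no molecular identifiers, so the 3-count limit covers counting error only.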

Additional observations from a re-analysis of the deposited data

How the results depend on the processing

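No log2 difference of a tested isoform that was called changed sign under any alternative. With upper quartile scaling, and without a filter on low counts, 1 isoform was called for viscosity instead of 2. Leaving out 1 sample at a time gave 0 to 2 isoforms for viscosity, 2 to 3 for the knockdown and 3 in every such fit between the end points. Over the same fits all genes called were 1409 to 4349 for viscosity, 2179 to 3836 for the knockdown and 6318 to 7705 between the end points, and listed pathway genes called were 10 to 29, 15 to 23 and 34 to 41. SC 0.77 cP replicate 1 and SC 8 cP replicate 3 mattered most for viscosity, with 1409 and 1418 genes called without them. Without either, the viscosity calls of PRKCA, PRKCZ, PRKD3, PLCH2, PLCD4, DGKA, DGKD, CHN1, UNC13B, MAPKAP1, MTOR, AKAP13, CAVIN2 and WWC1 were lost. For the knockdown, leaving out 1 sample ended calls of PRKCH, PLCG2, UNC13A, PHLPP1, HSP90AA1 and PARD6B in at least 1 fit. By coding length the share of PRKCA was 50.9%, 52.9% and 51.7% in the 3 groups. By merged exons it was 36.3%, 38.2% and 37.1%, and leaving out 1 sample gave 35.8% to 36.8%, 37.8% to 38.8% and 36.7% to 37.4%.

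Samples with the same replicate number correlated by -0.05 to 0.09 after removing group means, and samples with different numbers by -0.11 to 0.11. No pairing by number was seen, but so few samples cannot show that there was none. With the replicate block 2, 3 and 3 isoforms were called for viscosity, the knockdown and the end points, 26, 20 and 41 listed genes, and 3475, 3607 and 7731 genes in all. Of the isoforms and listed genes named, the block ended the calls of PLCD4 for viscosity and PLCG2 for the knockdown and changed no other. Genes with few counts, such as PRKCQ and MMP9, carry the least depth.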

Other observations

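The protein kinase D genes, whose products are activated by protein kinase C, differed from one another. PRKD1 had 0 counts in all 9 samples. PRKD2 was at 35.1, 34.2 and 32.3 CPM in SC cells at 0.77 cP and at 29.7, 28.1 and 27.0 CPM at 8 cP, without overlap (log2 fold change -0.26, adjusted p = 0.00403 in edgeR). PRKD3 was at 64.0, 62.4 and 67.4 CPM and rose to 72.3, 72.1 and 75.1 CPM (0.18, adjusted p = 0.0307). Neither differed between shTRPV4 and SC cells at 8 cP by a called amount (adjusted p = 0.979 and 0.929).

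Among RNA genes named after an isoform, PRKCQ-AS1, which starts beside PRKCQ on the opposite strand, was the more abundant of the pair. It rose for viscosity from 0.817 to 1.35 CPM (log2 fold change 0.72, adjusted p = 0.0061) and stood at 1.62 CPM in shTRPV4 cells, while PRKCQ stayed near 0.07 CPM. PRKCZ-AS1, which shares 83 exon bases with PRKCZ, rose in shTRPV4 cells from 0.817 to 1.27 CPM (0.64, adjusted p = 0.0136) and had 0.06 for viscosity (adjusted p = 0.842). PRKCA-AS1, PRKCE-AS1 and PRKCZ-DT had at most 1 count in a sample.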
